A study of Mus musculus with 8 samples.

Results

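CT26 is an established mouse colon tumour line, and the comparison described here is CT26 cells that shared medium with RAW264 macrophages against CT26 cells grown alone. It covers 4 of the 8 arrays of the series: CT26 alone and CT26 in co-culture, each in experiment 1 and experiment 2, the 2 occasions on which the work was done. Arrays were assigned to an experiment by the replicate number in the sample titles. Members were all genes with a probe set that names 1 gene, taking for each gene the probe set with the highest mean over the 8 arrays. This gave 18193 genes from 34945 such probe sets, and 13196 of them passed a filter on low signal and were tested, of which 12706 reached that level in CT26 cells.

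All groups were wild-type cell lines with no added agent, grown in RPMI 1640 medium, and the series title places the work within a study of diet and the vitamin D receptor in the intestine. CT26 cells were seeded at 10000 cells in 1.5 ml per well, and RAW264 cells at 10000 cells in 0.5 ml per insert. After 8 h, which let the cells attach, the inserts were set into the wells, so that only soluble factors could pass between the lines. The time in co-culture is not given in the sources used here. CT26 cells were taken off the plate with trypsin and EDTA before lysis, whereas RAW264 cells were lysed on the insert, and total RNA (5 µg) was labelled for 1 array per group and experiment. One cell line stands for the tumour cell and another for the macrophage, and 2 experiments limit the precision of every value below. In RNA from a whole culture, a change in the share of cells that express a gene and a change in RNA per cell cannot be told apart.

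Macrophages and tumour cells exchange signals through secreted cytokines. Type I interferon binds the receptor chains Ifnar1 and Ifnar2, the kinases Jak1 and Tyk2 phosphorylate STAT proteins, and a complex that holds Stat2 and Irf9 binds interferon-stimulated response elements in target promoters. Interferon gamma uses Ifngr1 and Ifngr2 and acts at gamma-activated sites. Ligands of the tumour necrosis factor family act through NF-kB, whose subunits and inhibitors are themselves targets of the pathway. Low oxygen stabilises hypoxia-inducible factors, which bind a short core sequence near genes of glucose uptake, glycolysis and survival.

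On the CT26 arrays mesenchymal genes were stronger than epithelial ones, of which some were detected. All values are log2 signals after normalization by the authors, on which the 40th percentile of each array, used here as the floor of detection, lay between 5.21 and 5.28. Krt20, an intestinal keratin, measured 11.53 alone and 11.46 in co-culture in experiment 1, and 11.55 and 11.49 in experiment 2. The adhesion molecule Epcam lay at 6.92, 6.90, 6.82 and 6.97 in the same order, while the epithelial cadherin Cdh1 was under the floor on all 4 arrays. Mesenchymal genes were strong, with vimentin (Vim) between 14.70 and 14.88 and the collagen gene Col1a2 between 13.52 and 13.70. Of 25 epithelial markers on the arrays only 13 passed the filter, with means of 7.37 to 7.45 on the CT26 arrays. Of 26 mesenchymal markers 20 passed, with means of 10.16 to 10.43. An epithelial label thus rests here on Krt20 and Epcam, not on Cdh1 or on the list as a whole.

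Macrophage transcripts did not follow co-culture. The 30 macrophage markers tested had a mean of 5.62 and 5.66 in CT26 alone and 5.60 and 5.64 in CT26 co-culture, against 11.6 to 11.8 on the 4 RAW264 arrays. Lyz2, the macrophage lysozyme, measured 6.10, 5.93, 6.21 and 6.43 on the CT26 arrays in the order above and 15.21 and 15.31 in RAW264 alone. The pan-leukocyte gene Ptprc and the macrophage genes Coro1a, Lcp1, Cybb and Ctss were under the floor on all 4 CT26 arrays, among 9 of the 30 markers that were. Of the 30, 17 were above the floor on both arrays of at least 1 CT26 group. Higher in both experiments were 7, and lower in both 7. Both co-culture arrays lay above both arrays of cells alone for 5 and below them for 6. Among all tested genes, the shares were 9.69% above and 11.3% below. Csf1r, the receptor for colony-stimulating factor 1, measured 5.83 and 5.95 in experiment 1 and 5.35 and 5.91 in experiment 2, against 14.68 and 14.65 in RAW264 alone.

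Co-culture left most CT26 genes close to their level alone. The standard deviation of the change over the 13196 tested genes was 0.179 log2 in experiment 1 and 0.172 in experiment 2, and 95% of the mean changes lay between −0.25 and 0.28. Changes above 1 log2 were seen for 13 genes upward and 1 downward in experiment 1, and for 1 upward and 2 downward in experiment 2. No gene was more than 1 log2 higher, or more than 1 log2 lower, in both (0% each). More than 0.5 log2 in both was reached by 21 genes upward (0.159%) and 5 downward (0.0379%).

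No CT26 gene passed the test. Fitted with limma over all 8 arrays, 0 of 13196 genes had an adjusted p under 0.05 (0%), also with the experiment as a block within each line (0%), and the smallest adjusted p was 1.00 without and 0.139 with that block. An unadjusted p under 0.05 was reached by 107 genes (0.811%), by 356 with a block shared by both lines (2.7%) and by 752 with a block within each line (5.7%), of which 417 were higher (3.16%) and 335 lower (2.54%). Everything that follows on CT26 is therefore descriptive, and its counts are to be read against the shares of all tested genes given next. A gene was counted as higher or lower when it lay on that side in both experiments, which 23.8% of all tested genes did upward and 30.1% downward. Groups were counted as not overlapping when both co-culture arrays lay above both arrays of cells alone (9.69% of tested genes) or below them (11.3%).

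**Figure D1:**
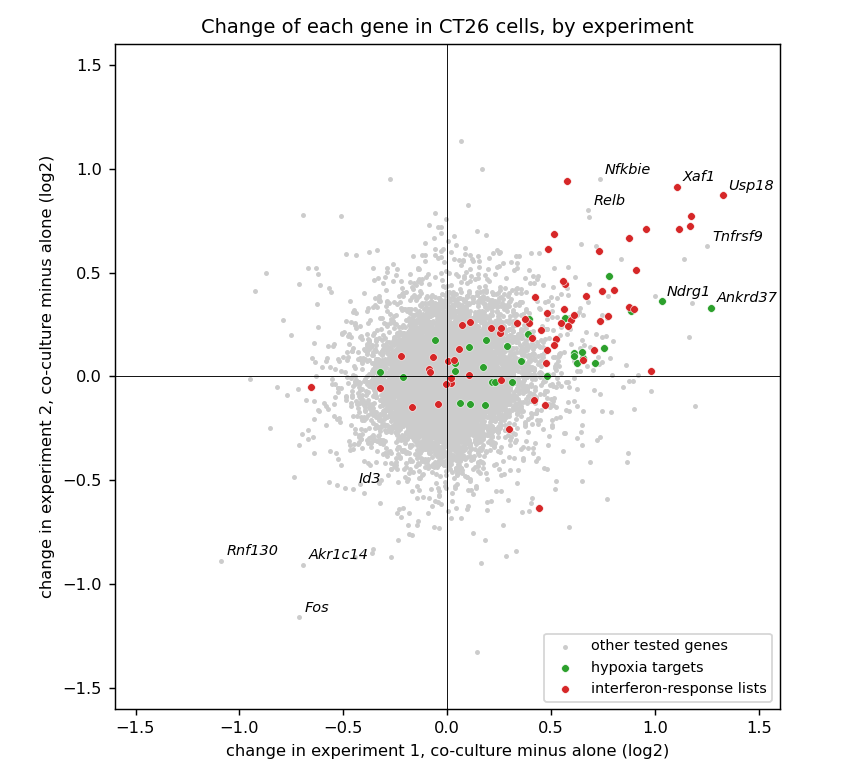
Change of each of the 13196 tested genes in CT26 cells (co-culture minus alone, log2) in experiment 1 on the horizontal axis and experiment 2 on the vertical axis, with 65 interferon-response genes in red, 31 hypoxia targets in green and all others in grey. Usp18 and Xaf1 lie farthest toward the upper right, Rnf130 and Fos lie at the lower left, and Ankrd37 and Ndrg1 lie past 1 on the horizontal axis and under 0.5 on the vertical axis.

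The genes with the largest shift in both experiments were mostly interferon-stimulated, and the response element was matched in 7 of the 12 that have a promoter in the table. Xaf1, the first of them, and Oasl2 had no match, and the median change was 0.77 log2 for the 7 with a match and 0.94 for the others. The 120 bases before the start site are shown for 4 of the 7 with a match, from RefSeq on GRCm38.p6, 5′ to 3′ along the gene, because these are the letters that the interferon-activated factors read. Capitals mark matches, on either strand, to the interferon-stimulated response element (GAAANNGAAA) and to the gamma-activated site (TTCNNNGAA). The stretches are chr8:61927967-61928086 on the plus strand for Ddx60, chr3:142620543-142620662 on the plus strand for Gbp2, chr5:120907526-120907645 on the minus strand for Oas1a and chr11:58214857-58214976 on the plus strand for Irgm2.
Ddx60: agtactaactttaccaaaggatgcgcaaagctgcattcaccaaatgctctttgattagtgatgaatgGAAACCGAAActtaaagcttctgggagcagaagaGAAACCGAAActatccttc
Gbp2: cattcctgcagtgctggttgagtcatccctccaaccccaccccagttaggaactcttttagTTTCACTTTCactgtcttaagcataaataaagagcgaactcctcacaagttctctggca
Oas1a: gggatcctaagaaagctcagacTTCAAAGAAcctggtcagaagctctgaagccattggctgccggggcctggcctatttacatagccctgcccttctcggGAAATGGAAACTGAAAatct
Irgm2: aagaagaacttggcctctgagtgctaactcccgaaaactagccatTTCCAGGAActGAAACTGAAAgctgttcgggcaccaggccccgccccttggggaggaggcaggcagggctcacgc
Ddx60 has 2 matches to the response element, at bases −53 to −44 and −19 to −10 from the start. Oas1a has 2 that overlap each other, at −20 to −11 and −14 to −5, and a gamma-activated site at −98 to −90. Gbp2 has 1, at −59 to −50, which reads on the opposite strand. Irgm2 has 1 at −64 to −55 and a gamma-activated site at −75 to −67.

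Hypoxia targets formed the other group with a promoter element in view, and 3 of them are shown for the core ACGTG. The stretches, again 120 bases before the start on GRCm38.p6, are chr7:138909507-138909626 for Bnip3, chr8:45999851-45999970 for Ankrd37 and chr14:45318573-45318692 for Ero1a, all on the minus strand.
Bnip3: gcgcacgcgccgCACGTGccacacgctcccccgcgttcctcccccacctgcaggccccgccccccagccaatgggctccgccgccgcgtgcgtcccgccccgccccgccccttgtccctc
Ankrd37: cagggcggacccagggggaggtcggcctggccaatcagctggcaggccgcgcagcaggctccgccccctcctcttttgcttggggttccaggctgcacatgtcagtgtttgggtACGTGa
Ero1a: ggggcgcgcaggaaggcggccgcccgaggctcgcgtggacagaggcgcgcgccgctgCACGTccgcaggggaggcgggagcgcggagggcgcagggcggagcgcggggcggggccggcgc
In Bnip3 the core matches on both strands at once, from −108 to −104 and from −107 to −103. Ankrd37 has it at −6 to −2 and again at −241 to −237, outside the stretch shown, and Ero1a has it on the opposite strand at −63 to −59.

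Over the windows of 300 bases around the start (250 before and 50 after), the interferon element was found in 372 of 10602 tested genes with a promoter in the table (3.51%) and in 3.44% of all 32851 windows. Among 53 interferon-response genes with a promoter, 22 carried it (41.5%), with a median CT26 change of 0.47 log2 against 0.17 for those without. Over all tested genes, 32.5% of those with the element and 23.2% of those without were higher in both experiments. Of 349 genes with it in none of the interferon, hypoxia and NF-kB lists, 28.9% were higher in both, and their median change was −0.00090. The gamma-activated site was present in 14 of the 53 and in 8.19% of tested genes, with medians of 0.27 with it and 0.30 without. The hypoxia core was present in 18 of 24 hypoxia targets with a promoter (75%) and in 28.3% of tested genes, and the medians of these targets were 0.32 with it and 0.058 without. Across all tested genes with the hypoxia core, 23.6% were higher in both experiments, near the background. A kappaB sequence (GGGANTTTCC) was found in 3 of 18 NF-kB genes and 0.538% of tested genes, with medians of −0.0011 with it and 0.12 without. Matches to a motif are letters only and do not show binding.

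The 15 genes with the largest smaller change upward (the lesser of the 2 experiments' changes) were Xaf1, Usp18, Ddx60, Nfkbie, Oasl2, Gbp2, Rtp4, Cxcl10, Relb, Oas1a, Tnfrsf9, Plcg2, Irgm2, Oas3 and Gbp2b. Their smaller changes ran from 0.57 to 0.91 log2, and Slc16a3, with 0.58 and 0.52, was the next outside. The 0.57 is that of Gbp2b, which was under the floor alone in experiment 2, so this lower end is not a measured size. Of the 15, 9 belong to lists of interferon-response genes, 2 are NF-kB genes, and 8 moved the same way in both experiments in RAW264 cells. The cells alone already differed between occasions for these genes: 13 of 15 were higher alone in experiment 1 than alone in experiment 2. Groups did not overlap for 10, against 9.69% of all tested genes upward, but the genes were chosen by these same changes.

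Usp18, the protease that removes ISG15 from proteins and dampens the interferon receptor, measured 9.39 alone and 10.72 in co-culture in experiment 1, and 8.49 and 9.37 in experiment 2. Xaf1, an interferon-induced promoter of apoptosis, went from 9.80 to 10.91 and from 8.61 to 9.52. For both genes the co-culture array of experiment 2 lay under the array of cells alone of experiment 1, so the groups overlapped and only the within-experiment change separated them. The mean change of Usp18 was 1.10 log2, with an SE of 0.48 without a block and 0.13 with the block within each line. That of Xaf1 was 1.01, with SEs of 0.51 and 0.099. The adjusted p of both by limma was 1.00 without and 0.139 with the block.

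Ddx60, a helicase that assists sensing of viral RNA, measured 5.70 and 6.88 in experiment 1 and 5.29 and 6.06 in experiment 2. Gbp2, a guanylate-binding GTPase that acts on intracellular pathogens, measured 5.22 and 6.18, then 5.03 and 5.74. In both genes every co-culture array lay above every array of cells alone. Gbp2 was under the floor on both arrays of cells alone and passed the filter in CT26 only through co-culture. The size of its change is therefore not a measured one. In RAW264 cells Gbp2 was under the floor in both conditions, with changes of −0.10 and 0.02. Gbp2b, a further guanylate-binding protein, went from 5.49 to 6.64 and from 4.97 to 5.54. It was under the floor alone in experiment 2 and on all RAW264 arrays, and passed the filter only through CT26 co-culture. The size of its change in experiment 2, 0.57 log2, and the rank that rests on it are therefore not measured ones. Irgm2, an immunity-related GTPase, went from 7.29 to 8.02 and from 6.83 to 7.44.

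The oligoadenylate synthetases, which make the activator of RNase L, were among the largest. Oas1a measured 10.48 and 11.35, then 9.62 and 10.29. Oas3 measured 7.06 and 7.63, then 6.43 and 7.37. Oasl2, an enzyme-like family member, went from 7.99 to 9.16 and from 7.44 to 8.16. Rtp4, an interferon-induced transporter chaperone, went from 9.85 to 10.97 and from 8.87 to 9.58. In each of these 4 the change was present in both experiments while the level alone was lower on the second occasion.

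Genes outside the interferon lists shared the top. Nfkbie, an inhibitor that holds NF-kB in the cytoplasm, measured 7.25 and 7.99 in experiment 1 and 6.43 and 7.38 in experiment 2. Relb, the subunit of the non-canonical NF-kB pathway, measured 7.49 and 8.17, then 8.32 and 9.12, and unlike most of the 15 it was higher alone on the second occasion. Tnfrsf9, a costimulatory receptor of the tumour necrosis factor family, went from 7.33 to 8.58 and from 7.67 to 8.30, a mean change of 0.94 log2 (SE 0.18 without a block). A further probe set of Tnfrsf9 had a mean change of 1.30, and the remaining one, with a CT26 mean of 4.34, was under the floor. Plcg2, a phospholipase of immune receptor signalling, went from 6.24 to 6.96 and from 6.20 to 6.83. Cxcl10, a chemokine that attracts T cells, went from 8.36 to 9.04 and from 7.60 to 8.37.

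**Figure D2:**
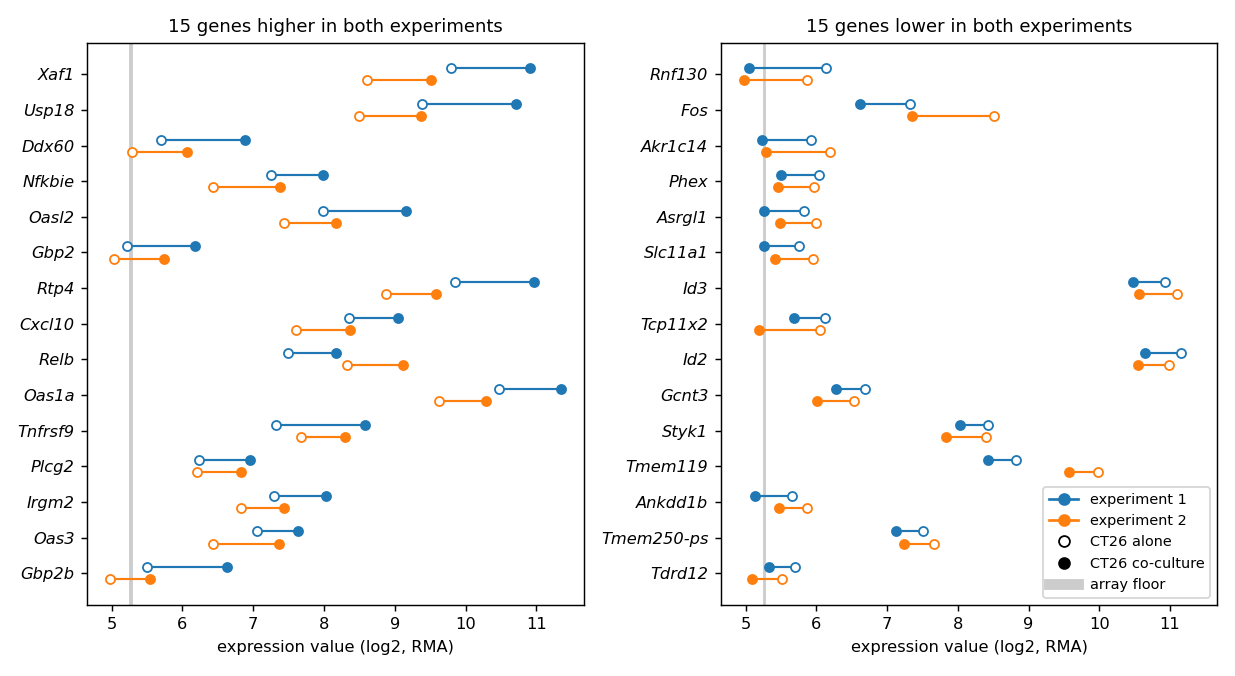
Log2 signal on each of the 4 CT26 arrays for the 15 genes with the largest upward and the 15 with the largest downward change in both experiments, with open points for cells alone, filled points for co-culture, blue for experiment 1, orange for experiment 2 and a grey band for the arrays' floor. Filled points lie to the right of the open point of the same colour in the upper genes and to the left in the lower genes, and for Usp18, Xaf1 and Rtp4 the orange pair lies to the left of the blue pair by about as much as the change itself.

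Interferon-response genes were higher as a body in both experiments. The lists of STAT and IRF factors, nucleic acid sensors, antiviral effectors, ISG15 enzymes and GBP and IRG GTPases held 65 tested genes, of which 49 were higher in both experiments, 5 were lower in both and 11 were more than 0.5 log2 higher in both. Their median change was 0.48 log2 in experiment 1 and 0.24 in experiment 2, against −0.010 and −0.011 for all tested genes, and 49 of the 65 had the larger change in experiment 1. Groups did not overlap for 26 upward and 3 downward, against 9.69% and 11.3% of all tested genes. With the block within each line, 39 of the 65 had an unadjusted p under 0.05 by limma, against 5.7% of all tested genes, and none passed after adjustment.

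The same genes also differed between the occasions in cells alone. Alone in experiment 1 lay above alone in experiment 2 for 52 of the 65, which 45.7% of all tested genes did, with a median difference of 0.24 log2 against −0.025 for all genes. In RAW264 alone the corresponding median of these genes was −0.17. For 31 of the 65 the co-culture array of experiment 2 lay below the array of cells alone of experiment 1, with a median difference of 0.015. The median change of experiment 2 thus equalled the median difference between the cultures of CT26 alone, and leaving out a single array breaks the pairing and mixes both. The median of the antiviral effectors was 0.14 without co-culture of experiment 1 and 0.65 without co-culture of experiment 2, against 0.34 with all arrays.

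The upstream part of the pathway was near its level alone. Among 8 interferon receptor chains and Janus kinases, 4 were higher in both experiments and 1 lower, and the median change was 0.04. With the mean over all probe sets of a gene, 2 of the 8 were higher and 3 lower, with a median of 0.01, and both further probe sets of Ifnar2 were lower in both experiments, by mean changes of −0.27 and −0.22. Ifnar1 measured 9.18 and 9.21, then 9.06 and 8.98. Ifngr2 measured 8.15 and 8.48, then 8.36 and 8.61, and Tyk2 7.64 and 7.80, then 7.76 and 7.88, both without overlap. Jak2 lay lower in co-culture, at 10.05 and 9.95, then 9.82 and 9.65. None of the 3 interferon ligands tested was on 1 side in both experiments, and Ifnb1, the gene of interferon beta, measured 5.15, 5.11, 5.32 and 5.33, close to the floor.

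Of 9 STAT and IRF factors, 6 were higher in both experiments and 1, Irf8, was lower, with a median change of 0.19. Irf9, the DNA-binding partner of Stat2, measured 7.94 and 8.46, then 7.48 and 8.16. Stat2 itself measured 6.56 and 7.04, then 6.24 and 6.85, and Irf7, the amplifier of interferon production, 7.67 and 8.54, then 7.54 and 7.87. The median of these factors was 0.05 with the mean over all probe sets of a gene and 0.04 with the probe set highest in CT26. No interferon element was matched in the window of Irf9.

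Among 15 cytosolic sensors and adaptors, 9 were higher in both experiments and 1 lower, with a median of 0.17 that was 0.44 in experiment 1 and 0.13 in experiment 2. Ddx58, the RNA sensor RIG-I, measured 8.96 and 9.52, then 8.52 and 8.98. Ifih1, the RNA sensor MDA5, measured 8.91 and 9.43, then 8.39 and 8.56. Trim14, an adaptor of this route, went from 6.83 to 7.50 and from 6.29 to 6.67. Aim2, a DNA sensor of inflammasomes, went the other way, from 6.87 to 6.70 and from 6.33 to 6.18.

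The antiviral effectors were the longest of these lists, with 26 of 31 higher in both experiments and 2 lower. Groups did not overlap for 12 upward and 2 downward, against 9.69% and 11.3% of all tested genes. Bst2, which tethers budding virus, measured 10.56 and 11.13, then 10.02 and 10.46. Rsad2, the enzyme viperin, measured 7.28 and 7.84, then 7.02 and 7.35. Parp14, an ADP-ribosyl transferase, went from 6.56 to 7.46 and from 6.01 to 6.33, and its partner in this family Parp9 from 8.60 to 9.21 and from 8.34 to 8.64. Trim30a, a regulator of innate signalling, differed more between the occasions than with co-culture, at 8.83 and 9.60, then 7.79 and 8.08. Ifitm3, a membrane inhibitor of virus entry, had nearly equal changes, at 13.05 and 13.26, then 13.03 and 13.26. Ifitm1 of the same family was lower in co-culture, at 11.83 and 11.17, then 11.18 and 11.13.

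The 6 GBP and IRG GTPases tested, of 9 on the arrays, were all higher in co-culture on both occasions, with a median change of 0.62 log2. Gbp2 is 1 of the 6 and passed the filter only through co-culture, so its direction follows from the filter. Gbp3 measured 6.48 and 7.39, then 6.10 and 6.61. Igtp, an immunity-related GTPase, measured 7.99 and 8.73, then 7.59 and 8.00. Gbp7 had most of its change in experiment 1, at 6.65 and 7.36, then 6.32 and 6.45. Among the 4 genes of ISG15 conjugation and removal, 2 were higher in both experiments, Usp18 and the conjugating enzyme Ube2l6, at 6.58 and 7.06, then 6.16 and 6.47, and Uba7, the activating enzyme, was lower in both.

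**Figure D3:**
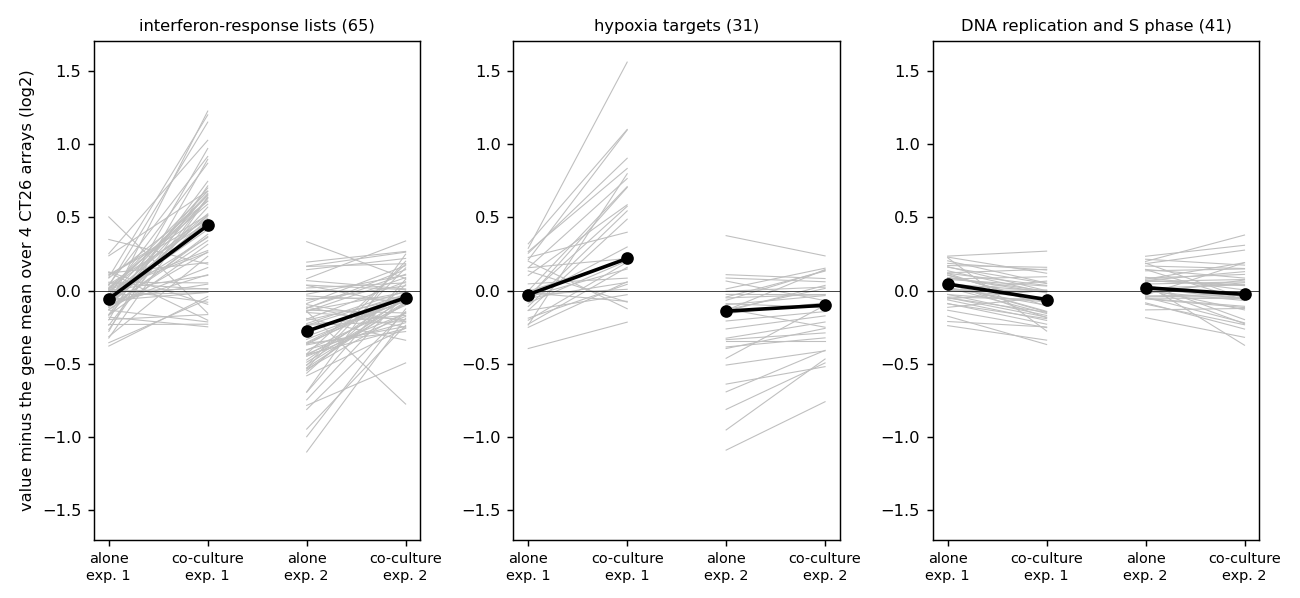
Log2 signal of each gene minus its mean over the 4 CT26 arrays, for 65 interferon-response genes, 31 hypoxia targets and 41 DNA replication genes, with a grey line per gene and the median per array in black. The interferon median is higher in co-culture within each experiment but the whole of experiment 2 sits lower, the hypoxia median stands out in co-culture of experiment 1, and the replication genes stay close to 0.

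Antigen presentation by MHC class I showed smaller changes. Of 17 genes, 10 were higher in both experiments and 3 lower, with a median of 0.08. Groups did not overlap for 6 upward and 1 downward, against 9.69% and 11.3% of all tested genes. Tapbp, which loads peptide onto class I molecules, measured 9.35 and 9.93, then 9.49 and 9.91. Psmb8, an immunoproteasome subunit, measured 8.83 and 9.34, then 8.52 and 8.96. The peptide transporter Tap1 went from 7.53 to 8.05 and from 8.04 to 8.26. The class I heavy chains H2-K1, at 12.58 and 12.80, then 13.01 and 13.22, and H2-D1, at 12.87 and 13.10, then 13.32 and 13.54, had changes of similar size in both experiments, and both were higher alone on the second occasion. Pdia3, Calr and Psmb10 were lower in both.

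In the NF-kB list, 12 of 21 genes were higher in both experiments and 1 lower, with a median change of 0.06 in experiment 1 and 0.17 in experiment 2. Beside Nfkbie and Relb, the survival gene Birc3 measured 6.70 and 7.05, then 6.79 and 7.21, without overlap. Nfkb2, the partner of Relb, measured 9.78 and 9.93, then 10.53 and 10.84. Tnfaip3, the deubiquitinase that ends the signal, measured 8.69 and 8.81, then 8.68 and 8.96. The exception was Nfkbiz, an atypical nuclear inhibitor, at 8.83 and 8.16, then 8.65 and 8.35. The median of the list, 0.12 with all arrays, was 0.0065 without co-culture of experiment 2, and with the mean over all probe sets 12 were higher and 4 lower. The 25 ligands and receptors of the tumour necrosis factor family had 7 higher and 8 lower, near the share of all genes.

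Of 22 chemokines, 10 were higher in both experiments, 1 was lower and the median change was 0.11. With the mean over all probe sets of a gene, 5 of 20 were higher and 1 lower, near the share of all tested genes, with a median of 0.05. Cx3cl1, which attracts monocytes, measured 6.60 and 6.85, then 6.60 and 6.87. Ccl5, a T cell and monocyte chemokine, measured 7.34 and 7.99, then 7.57 and 7.75. Ccl25 was the lower one, at 8.02 and 7.72, then 8.01 and 7.91. Interleukins and colony-stimulating factors were mixed, with 6 of 16 higher and 5 lower. Csf1, the growth factor of macrophages, measured 11.14 and 11.46, then 11.82 and 11.99, and Il34, the other ligand of the same receptor, 6.24 and 6.42, then 6.04 and 6.45. Il7, a lymphocyte growth factor, was lower, at 7.83 and 7.48, then 7.81 and 7.58.

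Ligands that tumour cells show to immune cells included 8 of 13 that were higher in both experiments and 1 lower, with a median of 0.06. Cd47, the signal that restrains phagocytosis, measured 11.96 and 12.21, then 11.66 and 11.93. Cd274, the checkpoint ligand PD-L1, measured 5.72 and 6.25, then 6.01 and 6.08, so its change lay almost wholly in experiment 1. The 16 brakes on cytokine signalling had 2 higher and 5 lower, among them Socs3, at 8.02 and 7.80, then 8.50 and 8.33.

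Hypoxia targets were higher in co-culture, unevenly between the experiments. Of 31, 22 were higher in both and 1, Pfkfb4, was lower. The median change was 0.35 log2 in experiment 1 and 0.09 in experiment 2. Groups did not overlap for 6 upward and 1 downward, against 9.69% and 11.3% of all tested genes. Ankrd37, a small hypoxia-induced protein, measured 8.05 and 9.32 in experiment 1 and 6.68 and 7.01 in experiment 2. Bnip3, a mitochondrial receptor of autophagy, measured 11.85 and 12.63, then 10.58 and 11.06. Ero1a, the oxidase of disulphide formation, went from 12.12 to 13.00 and from 11.10 to 11.41. In these 3 the array alone of experiment 1 lay above the co-culture array of experiment 2. Ndrg1, a stress-response gene, went from 11.00 to 12.03 and from 10.77 to 11.13, and its other probe sets had mean changes of 0.61 to 0.79. The glucose transporter Slc2a1 went from 11.30 to 11.95 and from 10.41 to 10.53, and the angiogenic factor Vegfa from 9.83 to 10.19 and from 9.73 to 9.81. In the limma fit with the block within each line, 12 of the 31 were higher at an unadjusted p under 0.05, against 3.16% of all tested genes. Without co-culture of experiment 1 the median of the list was −0.03. That value mixes the change with the difference between occasions, whose median in cells alone was −0.15 (experiment 2 minus experiment 1).

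Glycolysis genes had smaller but more even changes. Of 18 enzymes and lactate carriers, 14 were higher in both experiments and 1, the carrier Slc16a1, was lower, with medians of 0.14 in experiment 1 and 0.13 in experiment 2. Slc16a3, the lactate exporter of glycolytic cells, measured 7.31 and 7.89, then 7.80 and 8.32. Pfkl, a phosphofructokinase, measured 10.69 and 10.90, then 11.18 and 11.47, and Pgk1 14.42 and 14.54, then 14.24 and 14.38. Eno2, an enolase, had its change mostly in experiment 1, at 8.33 and 9.49, then 7.47 and 7.65. Leaving out 1 CT26 array moved the median of the list between 0.048, without co-culture of experiment 1, and 0.17.

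The 15 genes with the largest downward change in both experiments were less often members of the lists than the 15 higher ones. They were Rnf130, Fos, Akr1c14, Phex, Asrgl1, Slc11a1, Id3, Tcp11x2, Id2, Gcnt3, Styk1, Tmem119, Ankdd1b, Tmem250-ps and Tdrd12, with smaller changes of 0.37 to 0.89 log2 in size, and Cyp39a1, at −0.54 and −0.37, was the next outside. Groups did not overlap for 13 of them, against 11.3% of all tested genes downward, but the genes were chosen by these same changes. Of the 15, 4 belong to any of the lists, and 4 moved the same way in both experiments in RAW264 cells. Rnf130, Akr1c14, Asrgl1, Slc11a1, Tcp11x2, Ankdd1b and Tdrd12 were under the floor on at least 1 co-culture array. In CT26 these passed the filter only through cells alone, so the sizes of their changes, and their ranks, are not measured ones. The 0.89 log2 is that of Rnf130, which was under the floor on both co-culture arrays. In RAW264 alone 6 of the 15 had a mean over 10, against 2 of the 15 higher genes. On all 4 RAW264 arrays, 5 of the lower and 2 of the higher genes were under the floor.

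Fos, a component of the transcription factor AP-1, measured 7.33 alone and 6.62 in co-culture in experiment 1, and 8.51 and 7.35 in experiment 2. In RAW264 cells Fos also lay lower in co-culture, with changes of −0.94 and −0.66. The list of 29 immediate-early genes had 9 higher and 9 lower. Akr1c14, an aldo-keto reductase of steroid metabolism, measured 5.93 and 5.23, then 6.19 and 5.29. Rnf130, a ubiquitin ligase, measured 6.14 and 5.05, then 5.87 and 4.99, with both co-culture arrays under the floor. A further probe set of Rnf130, with a CT26 mean of 5.99, had a mean change of 0.01, and the remaining ones, at 4.37 and 4.72, were under the floor. Asrgl1, an asparaginase, had −0.54 on the probe set used and 0.32 on one with a CT26 mean of 5.32, just over the floor, while the others, at 4.81 and 4.37, were under it. For both genes the value thus comes from 1 probe set, and no other above the floor showed it.

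The Id genes, inhibitors of basic helix-loop-helix factors and targets of bone morphogenetic proteins, were lower together. Id3 measured 10.92 and 10.47, then 11.09 and 10.55. Id2 measured 11.16 and 10.64, then 10.98 and 10.55, and its other probe sets had −0.30 and −0.63. Id1 measured 10.86 and 10.41, then 11.06 and 10.79, and Smad6, an inhibitor in the same pathway, 6.78 and 6.41, then 7.46 and 7.17. Their whole list of TGF-beta family ligands, receptors and targets had 13 of 32 lower in both and 9 higher, with a median of −0.05 that ran from −0.18 to 0.04 as single CT26 arrays were left out. Tgfb1, a ligand of the list, was higher, at 7.50 and 7.64, then 8.57 and 8.93. The remaining lower genes included Styk1, a receptor-like kinase, at 8.43 and 8.03, then 8.39 and 7.83, and Tmem119, at 8.83 and 8.43, then 9.97 and 9.57, whose occasion difference exceeded its change.

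**Figure D4:**
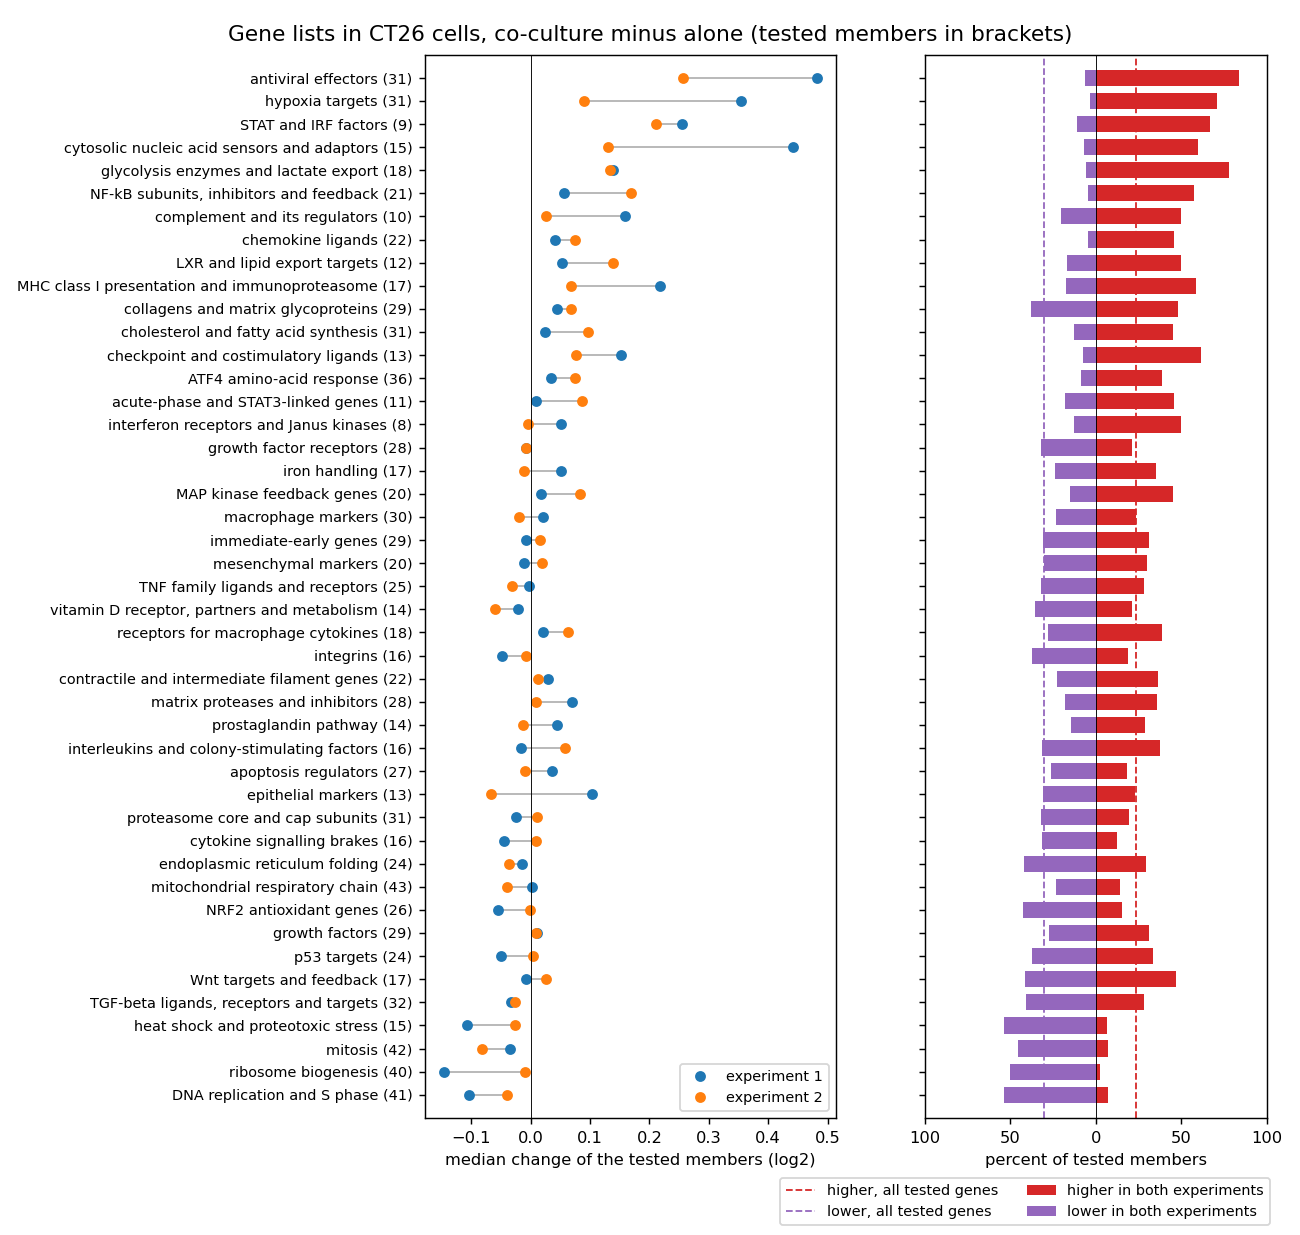
Median change per list of genes in experiment 1 and experiment 2 (left panel, log2) and the percent of a list's tested members that were higher (red) or lower (purple) in both experiments (right panel), for lists with at least 8 tested members, with dashed lines at the 23.8% higher and 30.1% lower of all tested genes. The antiviral, hypoxia and glycolysis lists lie far to the higher side, and DNA replication, heat shock and ribosome biogenesis lie to the lower side.

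Genes of growth leaned to the lower side by small amounts. Of all tested genes, 30.1% were lower in both experiments and 23.8% higher. Of 41 DNA replication genes, 22 were lower in both (53.7%) and 3 higher, and of 42 mitosis genes 19 were lower (45.2%) and 3 higher. Ribosome biogenesis had 20 of 40 lower and 1 higher. The medians were −0.07, −0.06 and −0.06 log2, against −0.012 for all tested genes, and with cyclic loess normalization they were −0.04, −0.03 and −0.03. The ribosome list had −0.15 in experiment 1 and −0.0088 in experiment 2, and its median was 0.03 without co-culture of experiment 1 and −0.15 without co-culture of experiment 2. Examples are Mcm2, a subunit of the replicative helicase, at 11.76 and 11.64, then 11.88 and 11.67, and the primase Prim1, at 11.30 and 11.15, then 11.18 and 11.03. Spc25 of the kinetochore measured 10.85 and 10.69, then 10.71 and 10.46, and Polr1b of RNA polymerase I 9.78 and 9.52, then 9.74 and 9.62. Heat shock genes had 8 of 15 lower and 1 higher, with Hspa1b, an inducible chaperone, at 7.08 and 6.78, then 6.80 and 6.54.

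The remaining lists can be given by their counts. The NRF2 antioxidant list had 11 of 26 lower and 4 higher, with its factor Nfe2l2 at 11.47 and 11.33, then 11.64 and 11.52. Cholesterol and fatty acid synthesis had 14 of 31 higher and 4 lower, with a median of 0.08 that ran from −0.089 to 0.17 as single CT26 arrays were left out, and the desaturase gene Scd2 measured 13.74 and 13.86, then 13.33 and 13.55. ATF4 targets of amino-acid shortage had 14 of 36 higher and 3 lower. Growth factors had 9 of 29 higher and 8 lower. Within them Hbegf, a ligand of the epidermal growth factor receptor, measured 11.54 and 11.89, then 11.55 and 11.91, whereas Ereg, a ligand of the same receptor, was lower, at 11.43 and 11.31, then 11.43 and 11.04. Collagens and matrix glycoproteins had 14 of 29 higher and 11 lower, with a median of 0.08, and with the mean over all probe sets 9 of 27 were higher and 8 lower, with a median of −0.0056. Leaving out single CT26 arrays moved the median of the collagens between −0.15, without alone of experiment 1, and 0.22, without co-culture of experiment 1. The p53 targets had 8 of 24 higher and 9 lower, and Wnt targets 8 of 17 higher and 7 lower. The vitamin D list had 3 of 14 higher and 5 lower, and the receptor Vdr itself measured 6.34 and 6.47, then 6.31 and 6.35.

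RAW264 cells on the other side of the insert gave a point of comparison. Higher in both experiments were 32.5% of tested genes there and lower 29.1%, and with the block within each line 470 genes passed an adjusted p under 0.05 by limma (3.56%). The median change of the 65 interferon-response genes was 1.06 log2 in RAW264 and 0.34 in CT26, 58 of them were higher in both experiments in RAW264, 45 in both lines, and the RAW264 change was the larger for 60. Of the 65, 64 were above the floor in a CT26 group, and the RAW264 change was the larger for 59 of these. More than 0.5 log2 in both experiments was reached in RAW264 by 154 genes upward (1.17%) and 177 downward (1.34%). The 31 hypoxia targets had medians of 0.24 in RAW264 and 0.22 in CT26.

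The difference between the lines was tested as the RAW264 effect minus the CT26 effect. One gene, the interferon-stimulated Ifi44l, passed by limma (0.00758% of tested genes, adjusted p 0.00446), with a fitted difference of 4.10 log2 (SE 0.21). It entered the test only through RAW264 co-culture, where it measured 8.84 and 9.03, and was under the floor on the other 6 arrays, so the fitted difference is not a measured size. On CT26 it read 4.77 and 4.54, then 4.57 and 4.67, and no CT26 change can be given. Against RAW264 alone set at the floor, RAW264 co-culture was at least 13.0-fold higher. Without CT26 alone or CT26 co-culture of experiment 1 the count was 0, and without RAW264 alone or RAW264 co-culture of experiment 1 it was 2. With the block within each line 98 genes passed (0.743%), 51 with the higher effect in RAW264 and 47 with the lower. Of the 65 interferon-response genes 23 were among them, all with the larger effect in RAW264, and 22 of these 23 were above the floor in a CT26 group. Of the 98, 21 were under the floor on all 4 CT26 arrays, so for them the test compares a RAW264 change with values that carry no CT26 level.

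The 5 largest fitted differences toward RAW264 in this fit were those of Ifi44l, Rtp4, the class I gene H2-T24, Usp18 and Irf7. Among these, Rtp4 (3.85 log2), Usp18 (3.42) and Irf7 (3.14) were above the floor on all 8 arrays and were also higher in both experiments in CT26. H2-T24 was under the floor on 5 arrays, above it in both experiments only in RAW264 co-culture, where it was at least 12.6-fold above RAW264 alone.

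The 5 largest toward CT26 were those of the matrix gene Olfml3, the receptor Treml4, the caveolin Cav1, the lymphatic growth factor Vegfc and the decoy receptor Il13ra2. In all of them RAW264 was lower in co-culture while the CT26 change was small or could not be measured. Olfml3 had mean changes of −2.67 in RAW264 and 0.27 in CT26, Cav1 −1.99 and 0.01, and Il13ra2 −1.80 and 0.04. Treml4 and Vegfc were under the floor on all 4 CT26 arrays, and their mean changes in RAW264 were −2.05 and −2.03.

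An inhibitor of NF-kB was also among the genes whose CT26 effect was the higher one. Nfkbie was 0.84 log2 higher in CT26 co-culture (SE 0.0997 in the fit with the block within each line). It lay lower in RAW264 co-culture, with changes of −0.77 and −0.55. The difference of −1.50 passed in the fit with that block (adjusted p 0.0081 by limma). The differences were −0.87 for Gbp2, −0.73 for Relb and −1.10 for Tnfrsf9, with adjusted p of 0.051, 0.063 and 0.10 in the same fit, so none of these 3 passed. Gbp2 was under the floor in RAW264 in both conditions and on both arrays of CT26 alone. It entered the test only through CT26 co-culture, so its fitted difference is not a measured size.

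**Figure D5:**
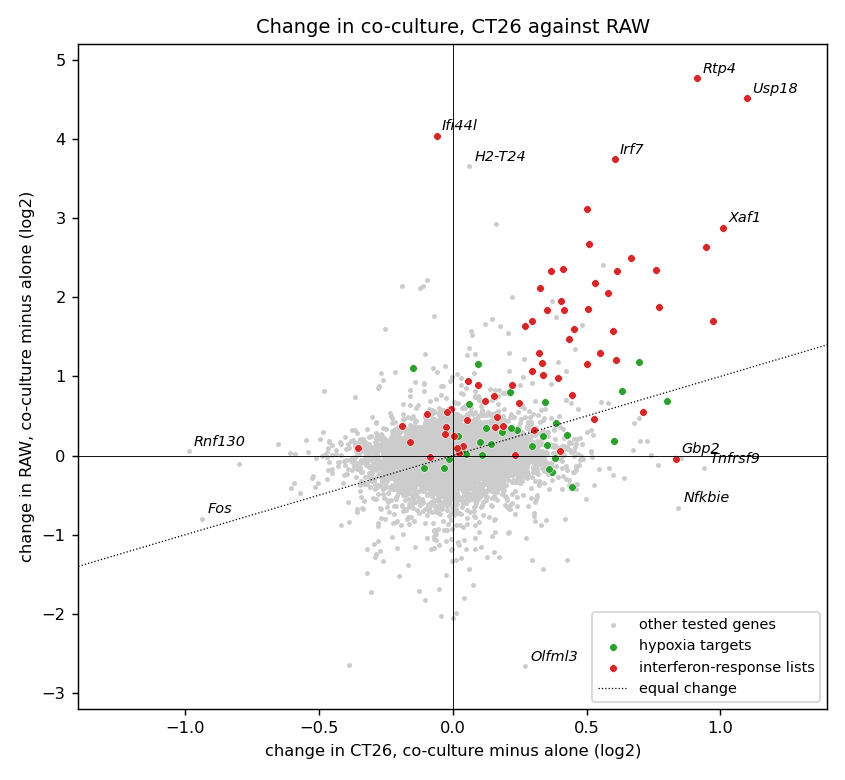
Mean change of each tested gene in CT26 cells (horizontal axis, log2) and in RAW264 cells (vertical axis, log2), with interferon-response genes in red and a dotted line where both are equal. Of the 65 interferon-response genes, 60 lie above the dotted line, Ifi44l, under the floor in CT26, lies at 4.04 in RAW264, and Nfkbie lies to the right and below 0.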

How the data were processed

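RNA of CT26 and RAW264 cells, each alone and in co-culture in 2 experiments, was measured on 8 Affymetrix arrays. The values deposited by the authors are log2 expression values. The submitters' processing notes name RMA and affy as their tools, with versions not given in the sources used here. RMA forces arrays to a shared distribution, so a shift of most genes in one direction would be removed. Once each array's values were ranked, equal ranks lay within 0.158 log2 of each other on all 8 arrays, and array medians lay between 5.88 and 5.94.

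Of 45101 probe sets, 64 array controls were left out, and of the rest 34945 named 1 gene, 932 several and 9160 none in the table used, with old annotation as a limit. A gene was tested when both arrays of at least 1 group exceeded their own 40th percentile. Group means over all 8 arrays were fitted with limma 3.58.1 in R 4.3.3, with Benjamini-Hochberg adjustment over 13196 genes and 0.05 as the threshold, and the code was tested on simulated data. The block by experiment, shared or within each line, was an alternative, as were the filter, the choice of probe set, the normalization, the variance prior and leaving out each array. The sample titles number the replicates, and arrays with equal numbers were taken as 1 experiment and paired. Deviations from the group means correlated at 0.754 between the CT26 groups, 0.765 between the RAW264 groups and 0.484 to 0.561 across lines.

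Named genes were the 15 higher and 15 lower with the largest value of the smaller of both within-experiment changes, above the 40th percentile in a CT26 group. Up to 3 members in each direction were added per list by the same measure, with other members by their levels only, and the 5 largest differences between lines in each direction. The members and gene lists were chosen with earlier results of these data known. Promoters came from RefSeq on GRCm38.p6, and tables were made with Python 3.11.15, pandas 2.3.3 and numpy 2.4.6.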

Additional observations from a re-analysis of the deposited data

Results flagged for a closer look

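The test of the difference between the CT26 and RAW264 effects called 1 gene (limma over 13196 genes, no block). That gene was Ifi44l, with a fitted difference of 4.10 log2. It entered the test only through RAW264 co-culture, where it measured 8.84 and 9.03, and was under the floor of detection on the other 6 arrays. The fitted difference is therefore not a measured size, and no CT26 change can be given. RAW264 co-culture was at least 13.0-fold above RAW264 alone set at the floor.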

How the results depend on the processing

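The count of CT26 genes past the threshold was 0 under every setting run, the replicate block included, so the blocked value of 0 changed no call there. The count of genes whose effect differed between the lines was 1 and became 11 with the replicate block shared by the lines, 98 with the replicate block within each line, 2 with cyclic loess and 4 with a trended variance prior. It ran from 0 to 2 as single arrays were left out, with 0 without CT26 alone or CT26 co-culture of experiment 1. CT26 genes at an unadjusted p under 0.05 by limma were 107, and 356, 752 and 986 with the block shared, within each line and on CT26 arrays only, 240 with no filter, 39 with the stricter filter and 198 without CT26 co-culture of experiment 2. The cause of these shifts was not tested. Of the 30 named genes none passed the adjusted threshold under any setting. Rnf130 turned to 0.0089 with the probe set highest in CT26, and Tmem119 to 0.17 without CT26 co-culture of experiment 1 or CT26 alone of experiment 2. Its lowest value, −0.98, came without CT26 alone of experiment 1. The stricter filter kept 21 of the 30 and the mean over probe sets gave 28. Many named lower genes lie near the floor, where signal over background limits the size of a change.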

Other observations

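The CT26 arrays differed more between the 2 occasions than with co-culture, with a standard deviation over genes of 0.299 log2 between the cultures alone and 0.345 between the co-cultures, against 0.179 and 0.172 for the changes within an experiment. Between the cultures of CT26 alone, 104 genes lay more than 1 log2 apart, and between the co-culture arrays 184 did, whereas 13 lay more than 1 log2 higher and 1 lower in co-culture in experiment 1.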
